A study of Mus musculus with 10 samples.

Results

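The rod phosphodiesterase and channel genes are Pde6a, Pde6b and Pde6g, Cnga1, Cngb1 and Slc24a1, and every CUT&Tag peak that the deposited peak table annotated to any of these 6 symbols was taken. This gave 42 of 108253 peaks, of which 7 were among the 17144 promoter peaks, and the 6 genes were among 25400 genes with a peak. Retinas of wild-type C57Bl/6J mice at postnatal day 28 were cultured as explants for 48 hours in medium with 5 mM or 25 mM glucose, without the sclera and pigment epithelium. Antibodies against lactylation of lysine 18 of histone H3 (H3K18La) were used in 3 libraries per glucose level and against acetylation of lysine 27 (H3K27Ac) in 2 libraries per glucose level, each from 500000 dissociated cells. In CUT&Tag an antibody brings a transposase to a modified histone, so that the sequenced fragments mark where the modification lies. Both marks are known from active promoters and enhancers, and lactylation is made from lactate, a product of glycolysis. All cell types of the neural retina entered each library, so fewer rods and less of a mark per rod cannot be told apart.

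Rods signal light through a fall in cyclic GMP. Light leads to the activation of transducin, transducin relieves rod phosphodiesterase of its inhibition, and the enzyme hydrolyses cyclic GMP. Pde6a and Pde6b encode the catalytic alpha and beta subunits of that enzyme and Pde6g its inhibitory gamma subunit. Cnga1 and Cngb1 encode the alpha and beta subunits of the cyclic GMP-gated channel of the outer segment, which closes as cyclic GMP falls. Slc24a1 encodes the rod exchanger that carries calcium out of the outer segment together with potassium, in exchange for sodium. Mutations in most of these genes are known causes of retinitis pigmentosa or stationary night blindness.

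The sequences just before the transcription start are shown for 3 genes whose start lay inside a promoter peak that rose with glucose (Pde6b, Cngb1 and Slc24a1), and for Cnga1, whose start lay in none of its peaks. The RefSeq promoter table (GRCm38.p6) held 4 of the 6 genes, without Pde6a and Pde6g. Each run gives 250 bases 5′ to 3′ on the strand of the gene and ends at the base before the start. The centre of the strongest Pde6b peak outside the promoter, an intergenic peak whose near edge lay 1106 bp upstream of the gene, follows from the GRCm38.p6 genome on the plus strand. Capitals mark TAATCC, the core bound by the photoreceptor factor CRX, and TGCTGA, the half-site bound by the rod factor NRL, or their reverse complements GGATTA and TCAGCA.
Pde6b, chr5:108388123-108388372, plus strand: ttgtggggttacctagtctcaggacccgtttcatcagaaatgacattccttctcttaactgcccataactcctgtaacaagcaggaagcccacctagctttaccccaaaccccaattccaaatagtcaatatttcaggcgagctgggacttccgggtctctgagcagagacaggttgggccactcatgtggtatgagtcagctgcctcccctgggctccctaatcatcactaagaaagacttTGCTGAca
Pde6b upstream peak, chr5:108386639-108386888, plus strand: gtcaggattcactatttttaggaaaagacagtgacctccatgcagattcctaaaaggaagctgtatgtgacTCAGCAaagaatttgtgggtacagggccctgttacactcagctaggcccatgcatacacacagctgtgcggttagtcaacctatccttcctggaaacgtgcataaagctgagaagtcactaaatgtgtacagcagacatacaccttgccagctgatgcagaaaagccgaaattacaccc
Cnga1, chr5:72642753-72643002, minus strand: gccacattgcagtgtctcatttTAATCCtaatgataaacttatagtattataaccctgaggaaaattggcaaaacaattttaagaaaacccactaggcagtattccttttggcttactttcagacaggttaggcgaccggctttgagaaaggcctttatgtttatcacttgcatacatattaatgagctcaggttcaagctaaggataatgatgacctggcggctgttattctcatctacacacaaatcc
Cngb1, chr8:95306586-95306835, minus strand: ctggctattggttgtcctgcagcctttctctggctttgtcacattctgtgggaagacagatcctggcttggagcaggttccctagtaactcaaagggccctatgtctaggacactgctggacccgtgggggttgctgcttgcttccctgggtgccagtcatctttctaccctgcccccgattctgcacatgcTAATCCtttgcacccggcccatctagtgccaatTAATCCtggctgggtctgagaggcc
Slc24a1, chr9:64951621-64951870, minus strand: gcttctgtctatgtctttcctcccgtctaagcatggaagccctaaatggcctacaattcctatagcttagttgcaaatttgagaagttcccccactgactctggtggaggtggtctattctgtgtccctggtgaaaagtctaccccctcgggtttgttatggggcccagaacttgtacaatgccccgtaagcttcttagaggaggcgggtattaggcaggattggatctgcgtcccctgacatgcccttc

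The Pde6b window held 1 NRL half-site, beginning 8 bases before the start. The Cngb1 window held 2 CRX cores, beginning 58 and 25 bases before the start, and the Cnga1 window held 1, beginning 228 bases before it. The Slc24a1 window held neither motif, and the centre of the Pde6b upstream peak held 1 NRL half-site. Among 27025 RefSeq windows of the same length, 6.38% held a CRX core and 15.8% an NRL half-site. A GC box (GGGCGG or CCGCCC) was in none of the 5 windows and in 32.9% of all RefSeq windows. No motif match overlapped another one in the windows shown. Over the central 250 bases of each peak, 6 of the 42 peaks held a CRX core, 7 an NRL half-site and 2 a GC box, against 9.66%, 21.1% and 10.3% of all peaks.

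Values are RPKM, the reads in a peak scaled to its length and to a total per library, and these totals ranged from 1358008 to 7424470 reads. Reads in peaks made up 11.8% to 12.01% of the H3K18La total at 5 mM and 31.2% to 35.0% at 25 mM. For H3K27Ac they made up 21.1% and 31.5% at 5 mM and 69.5% and 56.5% at 25 mM. This share moved with glucose in the same direction as the peaks described here, and its part in each change was not tested. At 5 mM the median over all peaks was as low as 1 read in an H3K18La library, so counting error was large for weak peaks. Within each pair of replicates, reads varied more than counting error alone gives, the ratio of chi-square to its degrees of freedom being 1.04 to 2.87. The peak set matches in size the H3K18La consensus peaks that the study merged from developing retina of several postnatal ages, for which it counted biological replicates. It was taken to be that set, in which case the peaks were called neither in these explants nor for H3K27Ac. For the principal component analysis of the explants, the methods of the study instead name merged consensus peaks of both marks. The labels put all 10 libraries in batch 1, and neither they nor the methods say which explants or animals the replicates came from, so p-values measure only the spread between these libraries, which may be partly technical.

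The first question was whether the promoters of these genes carried more of either mark in high glucose. The mean of each mark was higher at 25 mM at all 7 promoter peaks, and at 6 of them the ratios of means were 3.92 to 6.44 for H3K18La and 3.43 to 4.44 for H3K27Ac. The seventh, at a second, internal start of Cngb1, had lower ratios of 1.36 and 1.72 and was called for neither mark. A peak was called when its Benjamini-Hochberg adjusted p in limma was under 0.05. By this rule 6 of 7 promoter peaks of these genes were called for H3K18La, against 20.4% of all promoter peaks, and 6 of 7 for H3K27Ac, against 40.7%. All 6 H3K27Ac calls were lost with a pseudocount of 0.1, with ordinary moderation and when scaled to the signal in peaks, settings under which 0 of all 108253 peaks were called in limma for that mark (15738 to 33585 had an unadjusted p under 0.05). The last of these settings also ended the 6 H3K18La calls. The exact two-sided permutation p of each of these 6 promoters was 0.1 for H3K18La and 0.3333 for H3K27Ac, the smallest values that 3 against 3 and 2 against 2 libraries allow, and 0.233 and 0.359 after adjustment over the 14 tests.

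**Figure D1:**
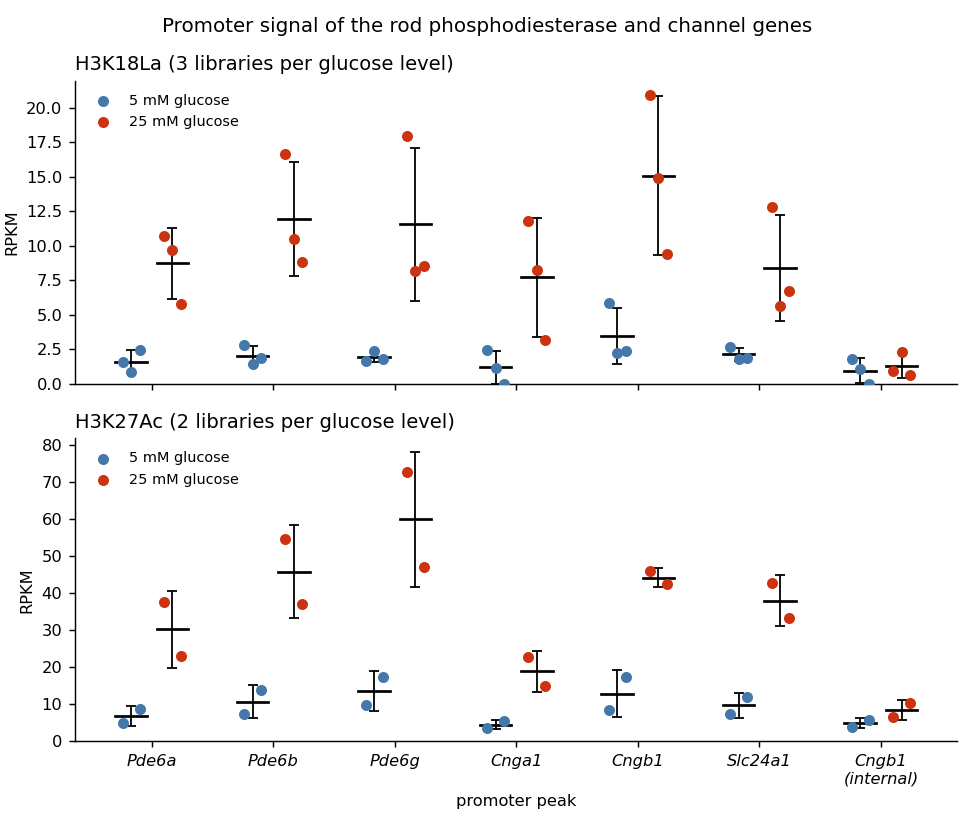
RPKM of the 7 promoter peaks in each library, with H3K18La above and H3K27Ac below. Points are libraries, horizontal lines are means and error bars are the SD (n = 3 per group for H3K18La, n = 2 for H3K27Ac). All 25 mM points lie above all 5 mM points except at the internal Cngb1 promoter for H3K18La, where values lay between 0 and 2.34.

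Pde6a, the alpha subunit, had its promoter peak on chromosome 18 at 61219752 to 61221556, across the gene start (ENSMUSG00000024575). H3K18La there was 1.58, 0.855 and 2.45 RPKM in the 3 libraries at 5 mM and 10.7, 9.67 and 5.79 RPKM at 25 mM. The lowest library at 25 mM was above the highest at 5 mM. The mean rose from 1.63 ± 0.797 to 8.73 ± 2.59 (SD, n = 3), a log2 change of 2.14 ± 0.39 (SE) with an adjusted p of 0.0016. H3K27Ac was 4.87 and 8.74 RPKM at 5 mM and 37.6 and 22.9 RPKM at 25 mM, again without overlap. Its log2 change was 2.08 ± 0.47 (SE), with an adjusted p of 0.0144.

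Pde6b, the beta subunit (ENSMUSG00000029491), had a promoter peak on chromosome 5 at 108387770 to 108390491, the widest promoter peak of these genes at 2722 bp. Its H3K18La was 2.79, 1.42 and 1.89 RPKM at 5 mM against 16.6, 10.5 and 8.79 RPKM at 25 mM. These groups did not overlap, and the log2 change was 2.29 ± 0.34 (SE), with an adjusted p of 0.000525. Its H3K27Ac was 7.48 and 13.8 RPKM at 5 mM against 54.7 and 37.0 RPKM at 25 mM. That log2 change was 2.09 ± 0.49 (SE), with an adjusted p of 0.0152. The NRL half-site printed above lies inside this peak, 8 bases before the RefSeq start.

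Pde6g, the inhibitory subunit (ENSMUSG00000025386), had a single peak, on chromosome 11 at 120451950 to 120453963, and it covered the start. H3K18La in it was 1.65, 2.40 and 1.83 RPKM at 5 mM and 17.9, 8.18 and 8.54 RPKM at 25 mM. H3K27Ac was 9.87 and 17.4 RPKM at 5 mM and 72.8 and 47.1 RPKM at 25 mM, the highest H3K27Ac of any of the 42 peaks at 25 mM. Neither mark overlapped between glucose levels. The log2 changes were 2.21 ± 0.35 (SE) for H3K18La, with an adjusted p of 0.000792, and 2.11 ± 0.50 (SE) for H3K27Ac, with an adjusted p of 0.0155.

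Cnga1, the channel alpha subunit (ENSMUSG00000067220), had a promoter peak on chromosome 5 at 72643456 to 72644622 that the table assigned to a transcript with a retained intron. Its near edge lay 704 bp upstream of the start of the coding transcript, and the 250 bases printed above are outside it. H3K18La was 2.44, 1.16 and 0 RPKM at 5 mM, from 6, 7 and 0 reads, and 11.8, 8.22 and 3.18 RPKM at 25 mM. The groups did not overlap, although the lowest value at 25 mM was close to the highest at 5 mM. The log2 change of 2.45 ± 0.61 (SE) was the largest H3K18La change and the least precise among the 6 called promoters (adjusted p of 0.0116). The call was lost when the second 5 mM library, or the first or the second 25 mM library, was left out (adjusted p of 0.0665, 0.0916 and 0.0768). It was also lost with a pseudocount of 0.1, with ordinary moderation and when centred on the median of all peaks (adjusted p of 0.0857, 0.0661 and 0.106). H3K27Ac was 3.57 and 5.38 RPKM at 5 mM and 22.9 and 15.0 RPKM at 25 mM, with a log2 change of 1.96 ± 0.45 (SE) and an adjusted p of 0.0144.

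Cngb1, the channel beta subunit (ENSMUSG00000031789), had promoter peaks at 2 starts. The peak over the start of the full-length transcript, on chromosome 8 at 95306110 to 95307327, had the highest mean promoter H3K18La of these genes at both glucose levels. At 5 mM, however, Pde6g was higher in the second library (2.40 RPKM) and Pde6a in the third (2.45 RPKM). H3K18La at this Cngb1 peak was 5.84, 2.22 and 2.42 RPKM at 5 mM and 20.9, 14.9 and 9.41 RPKM at 25 mM, with no overlap and a log2 change of 2.01 ± 0.37 (SE; adjusted p of 0.00195). H3K27Ac was 8.35 and 17.4 RPKM at 5 mM and 46.0 and 42.5 RPKM at 25 mM, with a log2 change of 1.83 ± 0.49 (SE; adjusted p of 0.0215). Both CRX cores printed above lie inside this peak.

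The second Cngb1 promoter peak, at 95281321 to 95281845, sits at the start of a shorter coding transcript with its near edge 24740 bp inside the gene. Its H3K18La was 1.81, 1.10 and 0 RPKM at 5 mM and 0.969, 2.34 and 0.642 RPKM at 25 mM, from at most 5 reads per library. The groups overlapped, and the log2 change of 0.46 ± 0.66 (SE) was not called (adjusted p of 0.671). H3K27Ac was 3.96 and 5.83 RPKM at 5 mM and 6.62 and 10.3 RPKM at 25 mM, without overlap, but the log2 change of 0.72 ± 0.43 (SE) was not called either (adjusted p of 0.256).

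Slc24a1, the exchanger (ENSMUSG00000034452), had a promoter peak on chromosome 9 at 64951133 to 64953441. H3K18La was 2.67, 1.84 and 1.91 RPKM at 5 mM and 12.8, 5.65 and 6.72 RPKM at 25 mM. The groups did not overlap, and the log2 change of 1.68 ± 0.36 (SE) was the smallest among the 6 called promoters (adjusted p of 0.0049). This call was lost when libraries were centred on the median of all peaks or on the weakest peaks (adjusted p of 0.111 and 0.0506). H3K27Ac was 7.31 and 12.1 RPKM at 5 mM and 42.8 and 33.2 RPKM at 25 mM, with a log2 change of 1.95 ± 0.47 (SE; adjusted p of 0.0165).

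RPKM is a level per length, so the promoters can be ordered. At 25 mM the mean H3K18La was 15.1 ± 5.74 at the main Cngb1 promoter, 11.97 ± 4.13 at Pde6b, 11.6 ± 5.53 at Pde6g, 8.73 ± 2.59 at Pde6a, 8.38 ± 3.85 at Slc24a1, 7.72 ± 4.32 at Cnga1 and 1.32 ± 0.902 at the internal Cngb1 promoter (SD, n = 3). Neighbours in this order differed by less than the larger of their SDs, except for the step down to the internal promoter. Mean H3K27Ac at 25 mM ran from 59.9 ± 18.2 at Pde6g through 45.8 ± 12.5 at Pde6b, 44.2 ± 2.50 at Cngb1, 38.0 ± 6.80 at Slc24a1, 30.2 ± 10.4 at Pde6a and 18.9 ± 5.56 at Cnga1 to 8.44 ± 2.58 at the internal Cngb1 promoter (SD, n = 2). The first 25 mM library of each mark was the highest of its group at the 6 called promoters.

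A library's ranks do not depend on its total, so each promoter was also placed among the 17144 promoter peaks of the same library. Pde6a lay at the 47.1st to 90.1st percentile of H3K18La at 5 mM and at the 91.1st to 96.3rd at 25 mM. The H3K18La ranks of Pde6b moved from between the 76.2nd and 93.0th percentile to between the 95.9th and 98.1st, and those of Pde6g from between the 76.0th and 93.7th to between the 94.9th and 98.4th. At Cnga1, Slc24a1 and the main Cngb1 promoter the H3K18La ranks of the glucose levels overlapped. For H3K27Ac, ranks did not overlap at Pde6a, Pde6b, Pde6g, Cnga1 and Slc24a1, all higher at 25 mM. Cnga1 moved most, from the 64.2nd and 66.2nd to the 80.4th and 81.9th percentile. The internal Cngb1 promoter went the other way, from the 69.2nd and 69.9th percentile of H3K27Ac at 5 mM to the 43.7th and 65.5th at 25 mM. How many of all 17144 promoter peaks rose in rank without overlap was not determined for either mark. Whether such rank changes were more frequent at these genes than at promoters in general was therefore not tested.

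**Figure D2:**
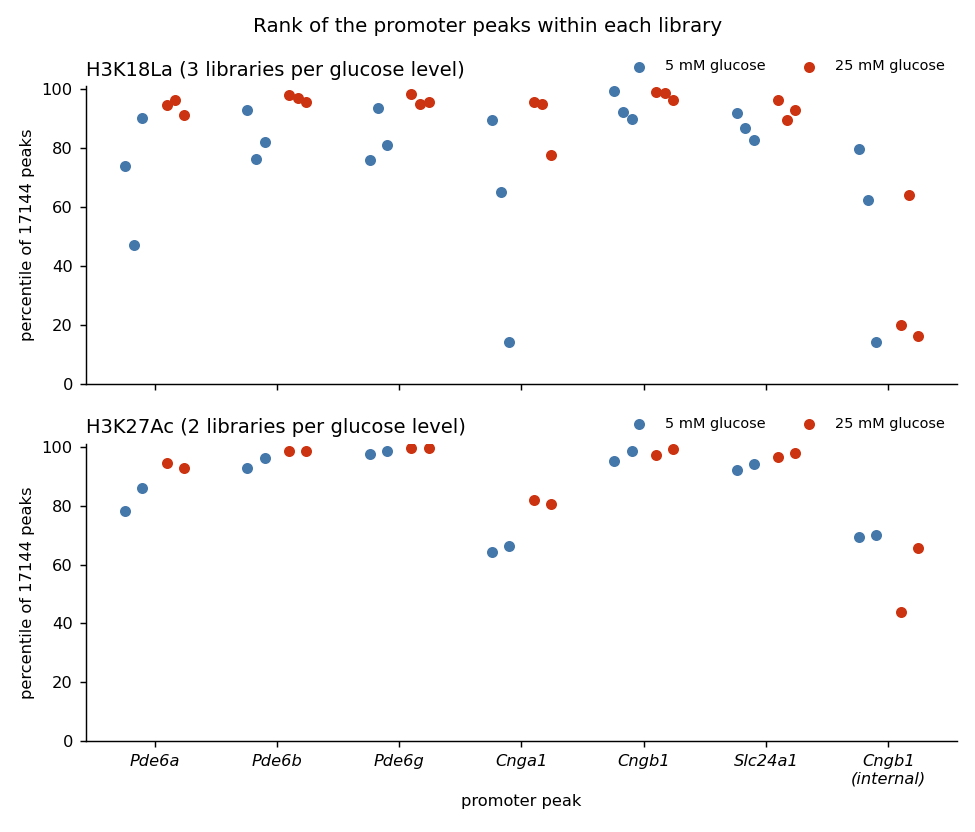
Percentile of each promoter peak among the 17144 promoter peaks of the same library, with H3K18La above, H3K27Ac below and 1 point per library. H3K18La ranks are higher at 25 mM without overlap for Pde6a, Pde6b and Pde6g, and H3K27Ac ranks are higher without overlap for all but both Cngb1 promoters.

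When the total of each library was replaced by its reads in peaks, which removes the difference in total peak signal, the rise was smaller. Values on this scale are called shares here and keep the units of RPKM. For H3K27Ac all 6 called promoters still had a higher share at 25 mM without overlap, by ratios of means between 1.49 at the main Cngb1 promoter and 1.86 at Pde6a, and the internal Cngb1 promoter had a lower share, by a ratio of 0.744. For H3K18La the shares did not overlap at Pde6b, with 23.2, 11.9 and 16.0 at 5 mM and 47.6, 33.2 and 28.2 at 25 mM. They also did not overlap at Pde6g, with 13.7, 20.1 and 15.5 at 5 mM and 51.3, 25.9 and 27.4 at 25 mM. Among all 42 peaks the share was higher without overlap in 6 (14.3%) for H3K18La and 18 (42.9%) for H3K27Ac, against 6.35% and 12.2% of all peaks. It was lower without overlap in 2 peaks for H3K18La, an intron and a 3′ UTR peak of Cngb1, and in 1 for H3K27Ac, the internal Cngb1 promoter, against 9.82% and 37.1% of all peaks. In the linear model on this scale 0 of the 42 peaks were called for either mark, with 6 and 13 at an unadjusted p under 0.05 (against 9.67% and 14.5% of all peaks), and 0 of all 108253 peaks were called for either mark. After voom on the recovered reads, scaled to the library totals and not to the reads in peaks, 19 and 28 of the 42 were called, against 25.8% and 20.2% of all peaks.

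Over all 42 peaks the same direction prevailed. The median log2 change was 1.28 for H3K18La, with 40 of 42 changes above 0, and 1.39 for H3K27Ac, with all 42 above 0, while the medians over all 108253 peaks were 0.76 and 0.58. H3K18La rose in 17 peaks (40.5%) against 20.6% of all peaks, and none fell. H3K27Ac rose in 23 peaks (54.8%) against 16.4% of all peaks, and none fell. The glucose levels did not overlap, with 25 mM higher, in 24 peaks (57.1%) for H3K18La and 40 (95.2%) for H3K27Ac, against 36.6% and 53.0% of all peaks. Leaving out the first 25 mM library lowered the H3K18La count from 17 to 11, and the part of all peaks called to 13.2%. Each H3K27Ac group had only 2 libraries, and with any 1 of the 4 left out 0 of the 42 peaks were called, while all 42 changes stayed above 0. In those fits the spread came from the other group alone, with the lone library assumed to vary like it, so the loss of calls says little about stability.

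**Figure D3:**
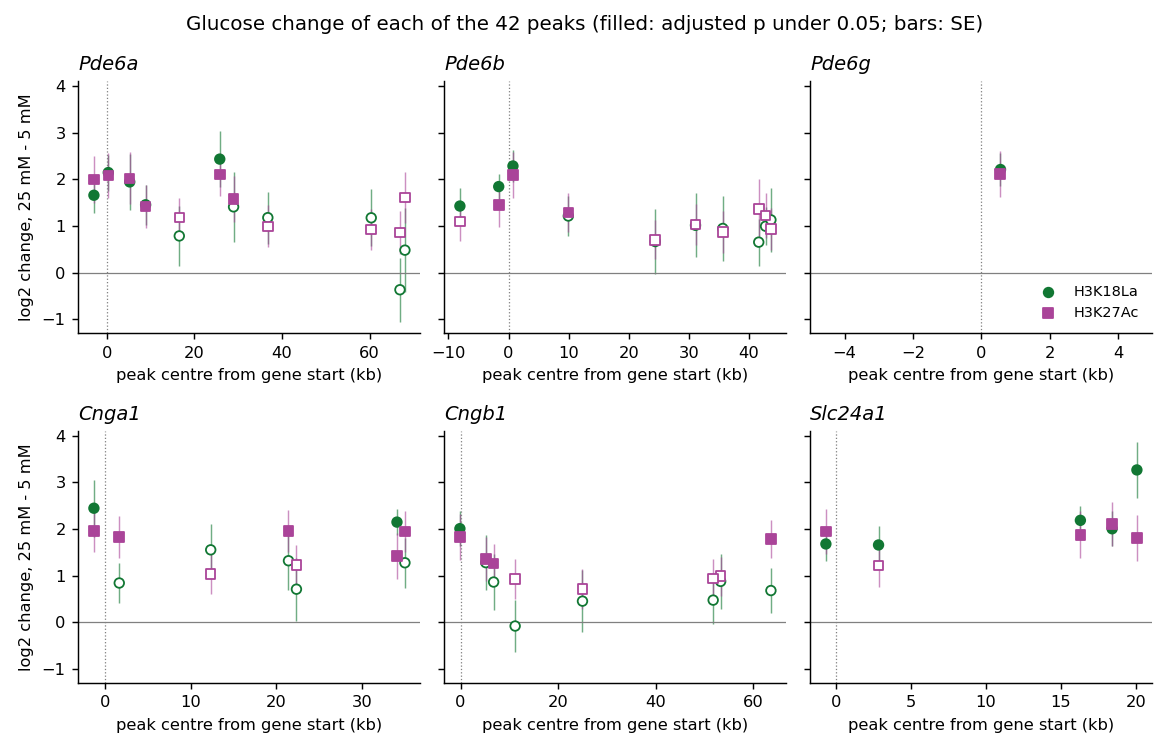
Log2 change of H3K18La (circles) and H3K27Ac (squares) from 5 mM to 25 mM glucose at each of the 42 peaks, against the distance of the peak centre from the start of the longest coding transcript, in kb. Bars are the SE from limma and filled symbols have an adjusted p under 0.05. In Pde6b and Cngb1 the called H3K18La changes lie at or upstream of the start, while in Slc24a1 all 5 peaks are called.

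The 35 peaks outside promoters comprised 18 in introns, 10 in exons, 3 intergenic, 3 in the 3′ UTR and 1 in the 5′ UTR by the deposited annotation, which uses several transcripts of a gene. H3K18La rose in 11 and H3K27Ac in 17 of them, against 20.8% and 12.1% of all non-promoter peaks called. Their median log2 changes, 1.18 and 1.29, were below the 2.14 and 1.96 of the promoter peaks.

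In Slc24a1 the strongest signal lay inside the gene. A peak of 3213 bp annotated to exon 4 of 10, on chromosome 9 at 64933699 to 64936911, had the highest mean over the 10 libraries of any non-promoter peak of the gene. H3K18La in it was 2.95, 2.28 and 4.13 RPKM at 5 mM and 22.2, 14.3 and 11.96 RPKM at 25 mM, with a log2 change of 2.19 ± 0.31 (SE; adjusted p of 0.000403). H3K27Ac was 10.5 and 19.4 RPKM at 5 mM and 64.0 and 45.3 RPKM at 25 mM, with a log2 change of 1.88 ± 0.50 (SE; adjusted p of 0.0205). A peak at exon 6 of Slc24a1, at 64931207 to 64931862, had the largest H3K18La change of the 42 peaks. It went from 2.89, 0.588 and 0 RPKM, or 4, 2 and 0 reads, to 18.6, 12.4 and 6.17 RPKM, with a log2 change of 3.27 ± 0.59 (SE; adjusted p of 0.0017). The H3K18La of all 5 Slc24a1 peaks rose, where 20.6% of all peaks were called higher.

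Pde6b had an intergenic peak just upstream of its promoter, on chromosome 5 at 108386241 to 108387285, whose central sequence is printed above. H3K18La there was 4.99, 3.51 and 3.52 RPKM at 5 mM, the highest mean of the 42 peaks at that level, and 20.0, 14.8 and 12.6 RPKM at 25 mM. The log2 change was 1.84 ± 0.27 (SE), with an adjusted p of 0.000507. H3K27Ac was 11.7 and 17.4 RPKM at 5 mM and 42.8 and 37.5 RPKM at 25 mM, with a log2 change of 1.46 ± 0.48 (SE; adjusted p of 0.0416). Of the 7 Pde6b peaks inside or at the end of the gene, none was called for H3K18La and 1 was called for H3K27Ac. Of all non-promoter peaks 20.8% and 12.1% were called for these marks. The smallest H3K27Ac change of the 42 peaks was in intron 3 of Pde6b, with 2.67 and 3.21 RPKM at 5 mM, 3.80 and 6.79 RPKM at 25 mM and a log2 change of 0.71 ± 0.42 (SE; adjusted p of 0.252).

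In Cnga1 the strongest peak outside the promoter lay in intron 8, the last intron, on chromosome 5 at 72608209 to 72609116. It had 3.65, 2.34 and 2.43 RPKM of H3K18La at 5 mM and 12.9, 13.8 and 15.2 RPKM at 25 mM, the smallest H3K18La spread relative to the mean among the 25 mM groups described here. The log2 change was 2.15 ± 0.28 (SE), with an adjusted p of 0.00027. H3K27Ac in it was 7.90 and 17.4 RPKM at 5 mM and 34.3 and 30.4 RPKM at 25 mM, with a log2 change of 1.42 ± 0.49 (SE; adjusted p of 0.0493).

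Pde6a had its strongest non-promoter signal in an intergenic peak whose near edge lay 2698 bp upstream of the start. Its H3K18La was 1.91, 1.94 and 4.45 RPKM at 5 mM and 15.4, 7.44 and 6.80 RPKM at 25 mM, without overlap (log2 change of 1.66 ± 0.39, SE, adjusted p of 0.0082). This call was lost without the second 5 mM library, without the first 25 mM library and when centred on the median of all peaks (adjusted p of 0.0658, 0.0593 and 0.152). Its H3K27Ac was 3.26 and 10.4 RPKM at 5 mM and 30.8 and 20.4 RPKM at 25 mM (log2 change of 2.00 ± 0.50, SE, adjusted p of 0.0181). At the other end of the gene, a peak in intron 21 of Pde6a had the smallest H3K18La change of the 42 peaks, -0.36 ± 0.68 (SE; adjusted p of 0.753). H3K18La in it was 1.76, 0.479 and 0 RPKM at 5 mM and 0.631, 0 and 0.418 RPKM at 25 mM, which is at most 3 reads in a library.

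In Cngb1 the strongest non-promoter peak, in intron 2 of a short transcript and with its near edge 4812 bp inside the gene, was weak. H3K18La was 0, 1.31 and 1.00 RPKM at 5 mM and 1.39, 2.68 and 2.76 RPKM at 25 mM, and the log2 change of 1.28 ± 0.58 (SE) was not called (adjusted p of 0.144). H3K27Ac in it was 2.20 and 6.80 RPKM at 5 mM and 11.4 and 10.5 RPKM at 25 mM, with a log2 change of 1.36 ± 0.47 (SE; adjusted p of 0.0491). Of the 8 Cngb1 peaks the main promoter was the only one called for H3K18La, where 20.6% of all peaks were called higher. Of the 8 changes 7 were above 0, and 3 peaks were higher at 25 mM without overlap, where 36.6% of all peaks were.

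Across the 42 peaks, larger changes on the log2(RPKM + 0.5) scale went with stronger peaks. To keep the measures in separate libraries, the change of each mark was set against the mean level of the other mark, on the log2(RPKM + 0.5) scale. Pearson's r was 0.760 and Spearman's rank correlation 0.760 for H3K18La, and 0.733 and 0.772 for H3K27Ac, over 42 peaks of 6 genes that share libraries and depth. Over all 108253 peaks the corresponding values were 0.544 and 0.549 for H3K18La and 0.484 and 0.485 for H3K27Ac. In the 21 peaks with the lower level the median H3K18La change was 0.88 and in the other 21 it was 1.94. For H3K27Ac these medians were 1.03 and 1.88. The added 0.5 shrinks the changes of weak peaks most, so part of this relation can come from the scale. At the Pde6b exon 4 peak, for example, the H3K18La ratio of means was 6.46 but the log2 change 1.02. Taking the level from the other mark does not remove this where a peak is weak in both marks. The part of the scale in the relation was not tested.

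The next comparison asked whether glucose changed the marks differently at these genes. The glucose by mark interaction called 0 of the 42 peaks and 0% of all 108253 peaks, of which 4988 had an unadjusted p under 0.05 in limma but none of the 42 did. The largest difference was at the exon 6 peak of Slc24a1, where the H3K18La change exceeded the H3K27Ac change by 1.46 ± 0.86 (SE; adjusted p of 0.971). The H3K18La change was the larger in 18 of 42 peaks, a count that was 31 with a pseudocount of 0.1, 12 with a pseudocount of 1 or after median centring, and 26 when scaled to the signal in peaks. With 1 library left out it ran from 10 to 28, with 10 and 28 without the second and the first H3K27Ac library at 5 mM and 12 without the first H3K18La library at 25 mM, so no order of the marks was read from it. Changes of the marks at the 42 peaks went together with Pearson's r of 0.678 and Spearman's rank correlation of 0.712, a description over peaks of 6 genes and not over replicates.

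**Figure D4:**
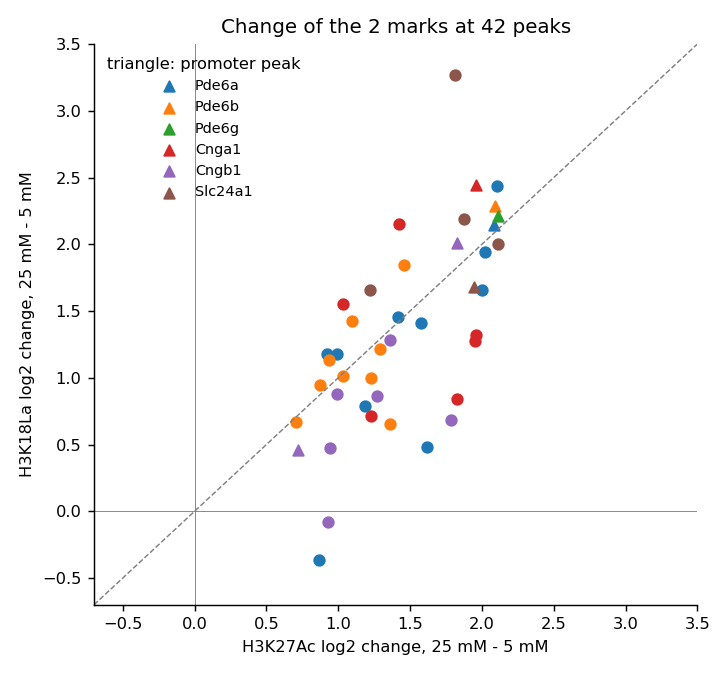
Log2 change of H3K18La against that of H3K27Ac at the 42 peaks, coloured by gene, with promoter peaks as triangles and the line of equal change dashed. Of the 7 promoter peaks, 6 lie above 1.5 on both axes, while the internal Cngb1 promoter lies near the lower left, and the Slc24a1 exon 6 peak lies farthest above the line.

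Summing all peaks of a gene, each as its RPKM times its length in kb, pooled the weak peaks. On this scale both marks rose in all 6 genes, where 37.5% of 25400 genes were called higher for H3K18La and 41.9% for H3K27Ac. For H3K18La the log2 change was 2.34 ± 0.30 (SE) for Pde6g, 2.24 ± 0.19 for Slc24a1, 1.96 ± 0.19 for Pde6b, 1.96 ± 0.25 for Cnga1, 1.88 ± 0.22 for Pde6a and 1.53 ± 0.25 for Cngb1, and the highest adjusted p was 5.71e-06. For H3K27Ac it ranged from 1.52 ± 0.43 (SE) for Cngb1 to 2.14 ± 0.42 for Pde6g, and the highest adjusted p was 0.00222. Slc24a1 had the largest mean sum of either mark at both glucose levels. Its H3K18La was 20.4, 14.9 and 19.1 at 5 mM and 128, 76.7 and 66.1 at 25 mM, and its H3K27Ac was 68.5 and 120 at 5 mM and 390 and 288 at 25 mM. In the second H3K18La library at 5 mM the sum of Pde6b was higher, at 15.4. When scaled to the signal in peaks, 1 of the 6 genes was called for H3K18La and 2 for H3K27Ac, with median log2 changes of 0.55 and 0.48 in place of 1.96 and 1.75. Without any 1 of the H3K27Ac libraries, all 6 H3K27Ac changes stayed above 0, with median log2 changes of 1.26 to 2.21.

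The part of a gene's signal that lay in its promoter peaks differed between genes. For H3K18La at 25 mM it was 67.9% ± 8.49 for Cngb1, 46.9% ± 4.27 for Pde6b, 33.9% ± 5.62 for Pde6a, 27.5% ± 12.8 for Cnga1 and 21.2% ± 3.64 for Slc24a1 (SD, n = 3). At 5 mM it was 48.8% ± 13.4 for Cngb1, 32.1% ± 6.63 for Pde6b, 23.8% ± 8.54 for Pde6a, 16.6% ± 14.4 for Cnga1 and 27.3% ± 3.75 for Slc24a1 (SD, n = 3). Pde6g had no other peak. Slc24a1 was the only gene with several peaks whose mean promoter share of H3K18La was lower at 25 mM.

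The other genes of rod phototransduction were described by their strongest promoter peak. All 3 transducin genes (Gnat1, Gnb1, Gngt1) rose in both marks, as did all 10 measured genes of 11 for shutoff and cyclic GMP synthesis (Sag, Grk1, Rcvrn, Rgs9, Gnb5, Guca1a, Guca1b, Gucy2e, Gucy2f, Pdc), where 20.4% of all promoter peaks were called for H3K18La and 40.7% for H3K27Ac. The median H3K18La change was 1.53 for the first group and 2.06 for the second, beside 2.18 for the strongest promoter peaks of the 6 phosphodiesterase and channel genes. The corresponding H3K27Ac medians were 2.15, 2.12 and 2.02, and over all promoter peaks the medians were 0.88 for H3K18La and 1.13 for H3K27Ac. In these groups H3K18La rose most at Guca1b, a guanylate cyclase activator, with 2.79 ± 0.35 (SE, log2), and least at Gngt1, the transducin gamma subunit, with 1.49 ± 0.34. H3K27Ac rose most at Pdc, the transducin-binding phosducin, with 2.76 ± 0.46 (SE, log2), and least at Gngt1, with 1.45 ± 0.45.

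Of 4 genes for handling of lipid-anchored proteins such as the phosphodiesterase itself, Aipl1, Unc119 and Arl3 rose in both marks. Of all promoter peaks 20.4% were called for H3K18La and 40.7% for H3K27Ac. Aipl1, a chaperone needed to assemble the enzyme, had the largest H3K18La change of all the lists, from 1.25 ± 0.641 to 14.2 ± 8.48 RPKM (SD, n = 3), a log2 change of 3.01 ± 0.43 (SE). Pde6d, which carries prenylated proteins in many cell types, was not called for H3K18La, with 1.56 ± 0.271 RPKM at 5 mM and 1.81 ± 1.39 at 25 mM (SD, n = 3; adjusted p of 0.986), but rose in H3K27Ac by 1.34 ± 0.45 (SE, log2). At the disc rim, Prph2 rose in both marks and Rom1 had no promoter peak.

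Of the cone counterparts, Pde6c, Cnga3, Cngb3 and Slc24a2 had a promoter peak and Pde6h did not. H3K18La rose at Pde6c, the cone catalytic subunit, by 1.59 ± 0.36 (SE, log2) and at Cnga3, the cone channel alpha subunit, by 2.10 ± 0.59. It was not called at Cngb3 and Slc24a2 (adjusted p of 0.381 and 0.358). H3K27Ac was low at these 4 promoters, with means of 0.672 to 1.53 RPKM at 5 mM and 1.85 to 2.58 RPKM at 25 mM, and it was called at Slc24a2 only, with a rise of 1.43 ± 0.45 (SE, log2). Mean H3K27Ac at the strongest rod promoters of the 6 genes was 18.9 to 59.9 RPKM at 25 mM. The difference between rod and cone promoters was not tested. With any 1 of the 4 H3K27Ac libraries left out, 0 of all 108253 peaks were called for that mark in limma (5836 to 36319 had an unadjusted p under 0.05), so the H3K27Ac calls of these lists were lost as well in fits that had a lone library in 1 group.

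**Figure D5:**
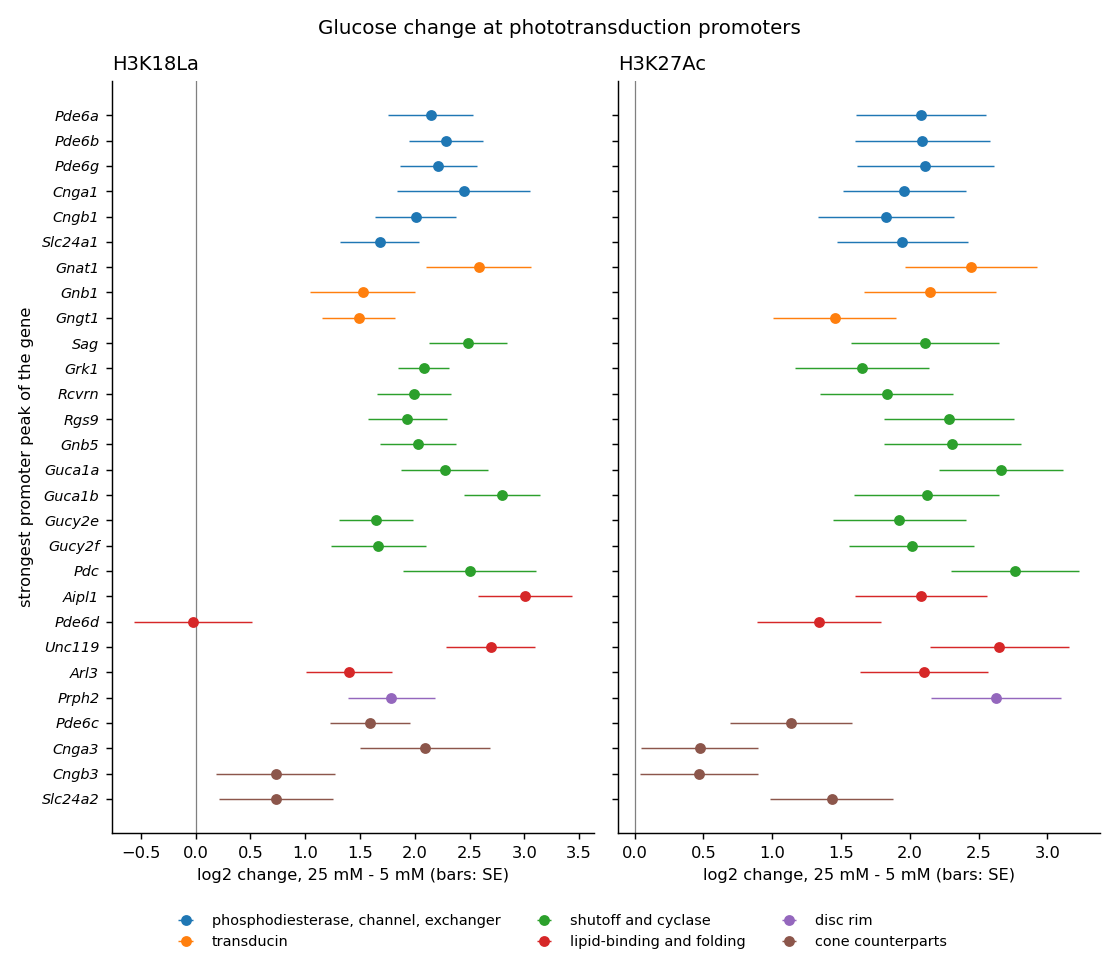
Log2 change from 5 mM to 25 mM glucose at the strongest promoter peak of each phototransduction gene, coloured by role, with H3K18La on the left and H3K27Ac on the right. Bars are the SE from limma. The 6 phosphodiesterase and channel genes lie between 1.68 and 2.45 for H3K18La, while Pde6d lies at -0.03 and the cone genes reach from 0.73 to 2.10.

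Promoters with a profile over the 10 libraries most like the mean profile of the 6 genes were sought among 12651 other genes whose strongest promoter peak had a mean of at least 1 RPKM. The closest was Gm12339, an antisense transcript, with a root mean square difference of 0.117 on the log2 scale. It was followed by Prom1 (0.127), which encodes a membrane protein of photoreceptor discs, Coro2b (0.142), a coronin of the actin cytoskeleton, Pcare (0.143), an actin regulator of the photoreceptor cilium, and Frmpd1 (0.162). The median over the 12651 genes was 0.817. Against the same mean profile, to which each contributes, the 6 genes ranged from 0.130 for Pde6b to 0.542 for Cnga1.

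Markers of the retinal cell types were examined at their strongest promoter peaks. All 5 rod markers examined, of which Pde6b and Cnga1 are themselves members of the group described here, rose in both marks. Their summed H3K18La was 5.03 to 10.1 RPKM at 5 mM and 34.03 to 80.3 RPKM at 25 mM, and their summed H3K27Ac was 32.5 and 54.1 RPKM at 5 mM and 149 and 251 RPKM at 25 mM. Of 6 cone markers, 3 rose in H3K18La and 1 in H3K27Ac. For bipolar cells 4 of 5 markers had a promoter peak, with 0 called for H3K18La and 3 higher for H3K27Ac, and for Müller glia 4 of 5 had one, with 0 and 2 called, beside the 20.4% and 40.7% of all promoter peaks called for H3K18La and H3K27Ac. Summed H3K18La was 1.66 to 2.93 RPKM at 5 mM and 2.25 to 3.47 RPKM at 25 mM for the bipolar markers, and 3.36 to 6.78 and 9.15 to 12.3 RPKM for those of Müller glia. Summed H3K27Ac of the bipolar markers was 3.92 to 5.71 RPKM at 5 mM and 17.3 to 30.6 RPKM at 25 mM, and that of the Müller glia markers 11.1 to 14.2 and 28.2 to 33.5 RPKM. Of the amacrine markers 2 of 5 had a peak and 1 rose in each mark, and of the ganglion cell markers 3 of 5 had a peak and none was called. Markers of microglia and of pigment epithelium had 1 promoter peak each out of 5 genes, C1qa and Best1, neither of which was called. The part of cell composition in the changes of the 6 genes was not tested.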

How the data were processed

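Peaks were measured by CUT&Tag in 10 libraries of mouse retinal explants, grouped by their titles. The authors aligned reads to GRCm38 with nf-core/cutandrun, called peaks with MACS, annotated them with ChIPseeker 1.34.1 (promoters from -1000 to 500 bp around a start) and counted reads with csaw over 1 peak set for all libraries; for differential binding their methods name consensus peaks merged over several postnatal ages. They deposited RPKM values per library, and a table of their own H3K18La comparison (fold changes and p-values), which was not used. RPKM values were whole multiples of 1 read in every library (100% within 0.1), which gave reads and totals; whether these totals hold the normalization factors of csaw is not given in the sources used here. The labels name another enzyme and, for the second mark, another antibody (H3K9me3) than the methods of the study, which were followed here together with the sample titles.

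The authors tested their counts with edgeR 3.40.2. The RPKM values they deposited were fitted here with limma 3.58.1 (R 4.3.3) on log2(RPKM + 0.5), with trend and robust moderation, for each mark alone and for the interaction over all 10 libraries. Benjamini-Hochberg adjustment ran over all 108253 peaks (threshold 0.05). Changes on this scale understate those of weak peaks. Gene sums were fitted likewise over 25400 genes. Robust moderation was chosen knowing that ordinary moderation had called no H3K27Ac peak. The 6 genes, the gene lists and the tests were chosen with earlier results of these data known. The peaks named are all promoter peaks, the strongest other peak of each gene by mean RPKM, and the largest and smallest changes. Each listed gene was taken by its strongest promoter peak. A further gene of these lists is not reported here. The genes named among the lists are those with the largest and smallest changes, with Pde6d, Pde6c, Cnga3, Cngb3 and Slc24a2 added for their roles after their values were seen. The fits were tested on simulated data. Python 3.11.15, pandas 2.3.3 and scipy 1.17.1 were used for the other steps. Reads were not counted with molecular identifiers. The settings also tried were ordinary moderation, pseudocounts of 0.1 and 1, leaving out peaks with a mean under 1, other scalings, voom on recovered reads, a replicate block and leaving out each library.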

Additional observations from a re-analysis of the deposited data

How the results depend on the processing

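Under the other settings the H3K18La count of 17 of 42 peaks fell to 9 after median centring (5.02% of all peaks) and to 0 when scaled to the signal in peaks, and was 11 to 17 with 1 library left out. The H3K27Ac count of 23 fell to 15 after such centring (5.11%), to 12 with the replicate block (7.87%), and to 0 with a pseudocount of 0.1, with ordinary moderation, when scaled to the signal in peaks and without any 1 library (lowest and highest 0). For gene sums, 6 of 6 genes for H3K18La became 1 when scaled to the signal in peaks (1.95% of all genes). For H3K27Ac, 6 became 2 with that scaling (4.39%) and 1 with the replicate block (14.5%), and all 6 changes stayed above 0 with a library left out. The median log2 ratio of means of the promoters, 2.49 for H3K18La and 2.09 for H3K27Ac, moved to 1.02 and 0.84 as a share of the signal in peaks.

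The H3K18La change at the internal Cngb1 promoter, not called in any of these fits, became -0.37 when scaled to the signal in peaks, -0.17 when centred on the median and -0.19 to 0.91 with 1 library left out (-0.19 without the third 5 mM library), and its H3K27Ac change became -0.46 with the first of these. Deviations of libraries with the same number were hardly correlated (-0.004 to 0.024). With so few reads per peak, counting error keeps such correlations low, and 2 H3K27Ac libraries per group give only 1 value. The correlations therefore cannot show whether libraries were paired, and the main fits did not pair them. The interaction called 0 of 42 peaks under every alternative run. With 2 libraries per group the H3K27Ac calls rested on the spread pooled over peaks. The cause of each lost call was not tested.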
